A study of Mus musculus with 19 samples.

Results

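The genes described here are the 8 subunits of Polycomb repressive complex 1 (PRC1) named Ring1, Rnf2, Bmi1, Pcgf2, Cbx2, Cbx6, Cbx7 and Cbx8, together with the histone H3K27 demethylase Kdm6b. They were chosen by gene symbol in the authors' annotated table, which gave 9 genes of the 55416 in the read count table, and all 9 passed the filter on low counts. They were measured in rRNA-depleted total RNA from mouse hippocampus (R. Hippocampus in the labels) in 19 libraries. The EZH2nHom mice had the genotype EZH2(-/-);Syn1Cre(+/-) and the WT mice EZH2(+/+);Syn1Cre(+/-), both on C57BL6, so that the controls carried the Cre driver too. Synapsin1-Cre drives recombination in neurons, so glial and vascular cells of EZH2nHom mice keep their floxed EZH2 alleles. Mice were injected intraperitoneally with saline or went through status epilepticus in the kainate model of repeated low doses, and tissue was taken 4 days later. There were 4 EZH2nHom kainate, 5 EZH2nHom saline, 5 WT kainate and 5 WT saline libraries. The labels do not state age, sex or whether each library is a separate animal, so the p-values measure the spread between these libraries.

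PRC1 is a histone H2A ubiquitin ligase. Its catalytic core pairs RING1 or RNF2 with a PCGF protein such as BMI1 or PCGF2, and in canonical complexes a CBX protein reads the H3K27 trimethyl mark that PRC2, the complex of EZH2, deposits. KDM6B (JMJD3) removes methyl groups from the same lysine and is known as a gene induced by inflammatory and differentiation signals. The comparisons therefore ask whether the writers and readers downstream of EZH2, and an eraser of its mark, changed at the level of their own transcripts when neurons lost EZH2, when mice went through status epilepticus, or both.

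Total reads were 29778706 to 43948317 in EZH2nHom kainate, 26114855 to 41404459 in EZH2nHom saline, 24496685 to 38436154 in WT kainate and 26607591 to 33649565 in WT saline libraries. Ezh2 itself averaged 17.5 ± 2.40 CPM (reads scaled to the library size) in EZH2nHom kainate, 13.6 ± 1.42 in EZH2nHom saline, 15.2 ± 4.53 in WT kainate and 11.3 ± 1.17 in WT saline libraries (SD, n = 4, 5, 5 and 5), and so was not lower in the knockout. Counts over the whole gene include glial transcripts and exons outside the deleted part, and do not check the genotype labels. EZH2nHom kainate replicate 2 stood apart, at -108.5 on the second principal component against -19.0 to 27.5 for the other 18 libraries. On the first component WT kainate replicates 1, 2 and 5 lay at -2.79, 15.4 and 11.1, and replicates 3 and 4 at 61.5 and 84.6. The EZH2nHom kainate libraries lay at 46.1 to 85.2. WT kainate replicates 3 and 4 also had the lowest Cbx6 (191.5 and 172.5 CPM) and Cbx7 (19.96 and 14.63 CPM) of their group. The part of this spread in the members' values was not tested. The prefix of a library's sample code has no stated meaning, and 0 prefixes were shared between the genotypes, so what it marks and genotype cannot be told apart. No prefix was shared by EZH2nHom kainate and EZH2nHom saline libraries either, so the same holds for the kainate response in EZH2nHom, including that of Kdm6b, while 6 WT libraries shared 2 prefixes across treatments.

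The transcripts of the 9 genes spanned a wide range of abundance, and their order was nearly the same in all 4 groups. Per kilobase of exon, Cbx6 was the most abundant, with means of 17.0, 18.4, 21.0 and 25.96 CPM per kb in EZH2nHom kainate, EZH2nHom saline, WT kainate and WT saline. Bmi1 followed with 14.5, 15.5, 13.2 and 13.98 CPM per kb, and Rnf2 with 13.99, 13.5, 10.2 and 10.1 CPM per kb. The ranges of these 3 neighbours in the order overlapped over libraries in both EZH2nHom groups and in neither WT group. Cbx7 (3.37 to 4.595 CPM per kb across group means) and Ring1 (2.92 to 3.41) came next, with overlapping ranges in every group but WT saline, and Cbx8 followed at 1.66 to 2.04. Kdm6b (0.550 to 0.840) and Pcgf2 (0.742 to 0.833) overlapped in every group, and Cbx2 was lowest at 0.422 to 0.513 CPM per kb, with a range that overlapped that of Pcgf2 in both EZH2nHom groups. In bulk tissue, fewer cells of a type and less RNA per cell cannot be told apart.

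**Figure D1:**
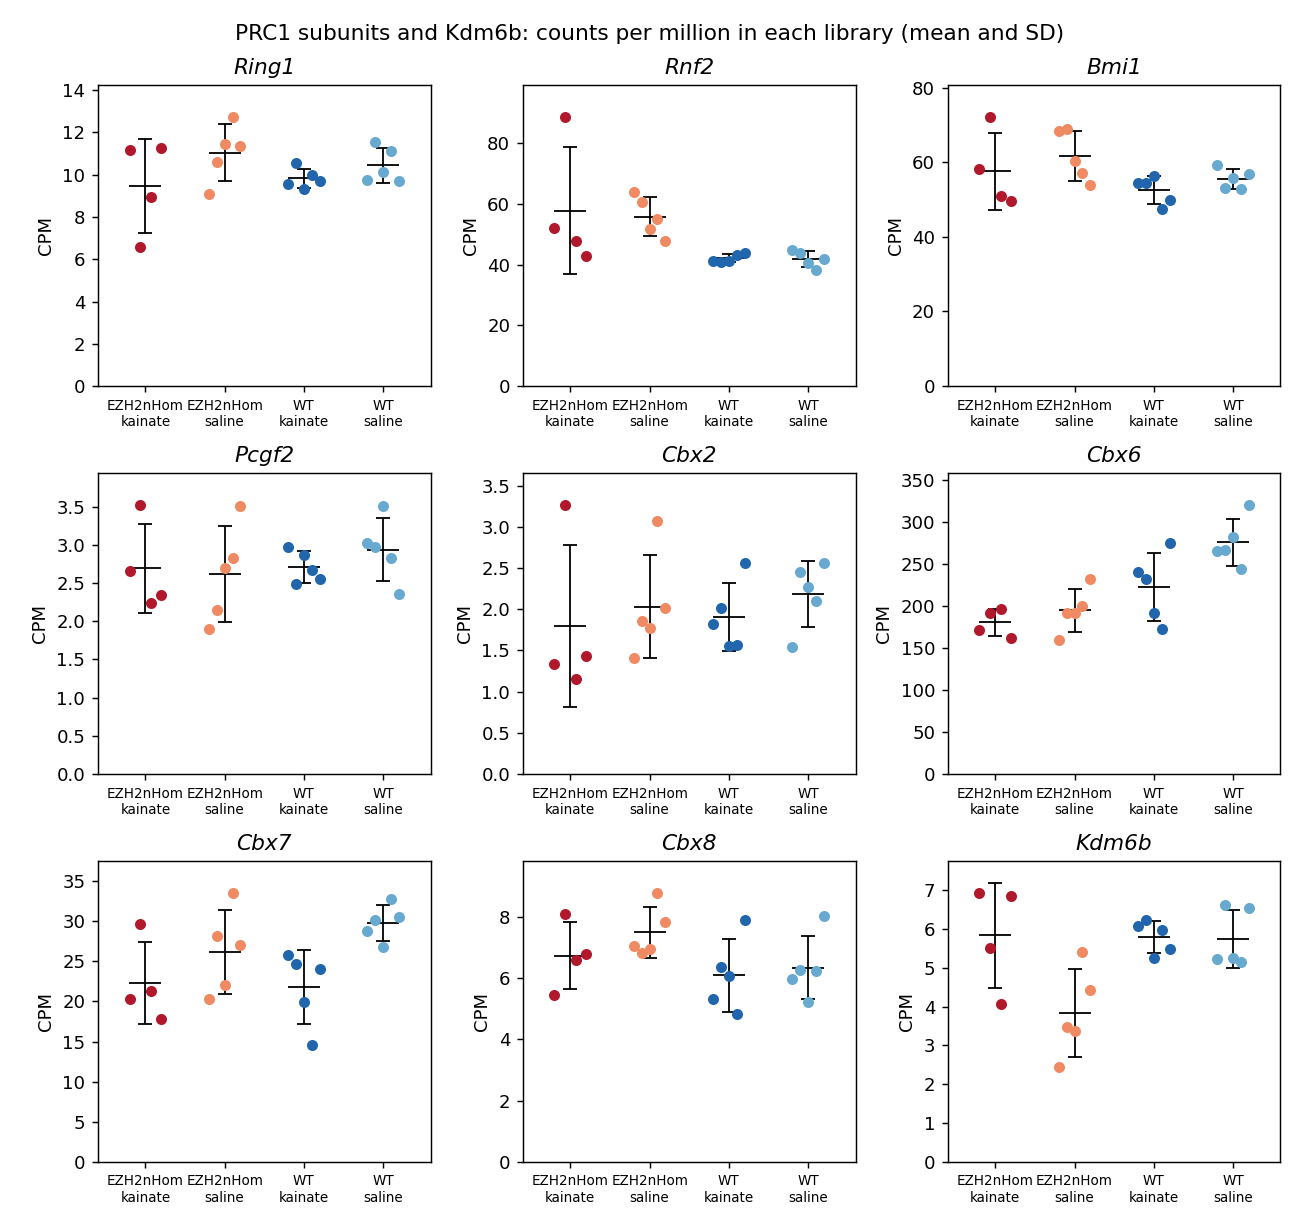
CPM (y axis, from 0, own scale per gene) of the 9 genes in each of the 19 libraries (points, in replicate order within a group), with the group mean and SD in black. Cbx6 shows no overlap between EZH2nHom saline (159 to 231 CPM) and WT saline (244 to 320 CPM), and 1 EZH2nHom kainate library lies far above the others for Rnf2 (88.5 CPM).

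Across the 4 pairwise comparisons, 3 gene and comparison pairs passed at an adjusted p under 0.05 (edgeR quasi-likelihood test, Benjamini-Hochberg over all 19234 genes tested). With kainate in EZH2nHom mice, Kdm6b rose and none of the other 8 passed, on a background of 26.1% of all tested genes called (14.3% higher, 11.8% lower). The groups overlapped for all 9, while 19.2% of all genes had none (9.93% higher, 9.23% lower). With kainate in WT mice 0 of 9 passed, against 12% of all genes (9.47% higher, 2.57% lower), and 1 of 9, Cbx7, had groups without overlap, against 14.4% of all genes (9.79% higher, 4.63% lower). Of the 9, 2 had an unadjusted p under 0.05, against 4741 of all 19234 genes. After saline, Cbx6 and Kdm6b were lower in EZH2nHom than in WT and none was higher, against 13.5% of all genes called (5.16% lower, 8.33% higher), and Rnf2 and Cbx6 had groups without overlap, against 21.3% of all genes (12.9% higher, 8.42% lower). After kainate 0 of 9 passed between genotypes, against 7.61% of all genes (4.56% higher, 3.04% lower), and 0 of 9 had groups without overlap, against 7.26% of all genes (4.13% higher, 3.13% lower). Of the 9, 2 had an unadjusted p under 0.05, against 4599 of all 19234 genes. The median log2 fold change of the 9 genes was -0.11 with kainate in EZH2nHom and -0.088 in WT, beside -0.016 over all genes in both. Between genotypes it was -0.11 after saline, beside 0.017 over all genes, and 0.0082 after kainate, beside 0.0040. The difference between the kainate responses of the genotypes passed for 0 of 9 members and for 0 genes in all (0% called). An unadjusted p under 0.05 was found for 1 of 9 members and 1685 of all 19234 genes. DESeq2 called 12 genes, none of them a member.

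**Figure D2:**
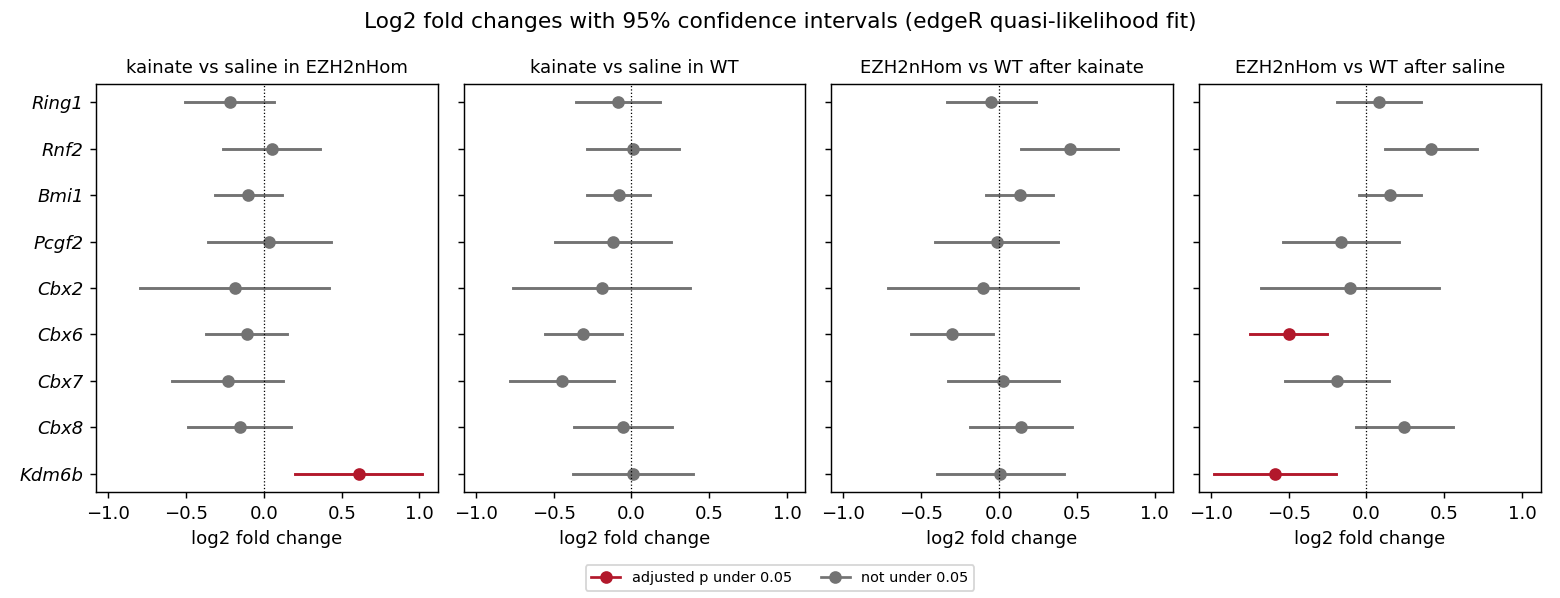
Log2 fold changes (points) with 95% confidence intervals (bars) of the 9 genes in 4 comparisons, red where the adjusted p was under 0.05. Most intervals span 0, and the called changes are those of Kdm6b in 2 panels (0.61 with kainate in EZH2nHom, -0.59 between genotypes after saline) and of Cbx6 between genotypes after saline (-0.50).

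Rnf2 and Ring1 encode the alternative catalytic RING subunits. The 250 bases before their annotated starts are shown because these paralogs, which share one enzymatic role, differed in level per kilobase, with Rnf2 above Ring1 in each of the 19 libraries. Sequences are from RefSeq on GRCm38.p6, 5′ to 3′ on the gene's strand (minus for both), with each CG dinucleotide in capitals, a motif that reads the same on both strands.
Rnf2 (chr1:151500992-151501241): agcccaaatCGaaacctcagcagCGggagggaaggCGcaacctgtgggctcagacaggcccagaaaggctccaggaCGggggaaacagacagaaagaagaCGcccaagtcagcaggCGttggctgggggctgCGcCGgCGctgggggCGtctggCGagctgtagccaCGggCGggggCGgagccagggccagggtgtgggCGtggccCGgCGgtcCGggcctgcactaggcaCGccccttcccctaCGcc
Ring1 (chr17:34024681-34024930): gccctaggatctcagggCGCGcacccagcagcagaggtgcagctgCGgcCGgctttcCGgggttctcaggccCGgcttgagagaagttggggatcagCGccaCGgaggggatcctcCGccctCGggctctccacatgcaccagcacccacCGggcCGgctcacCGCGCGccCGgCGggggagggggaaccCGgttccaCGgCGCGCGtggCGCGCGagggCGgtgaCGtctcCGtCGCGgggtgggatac
The Rnf2 window holds 20 CG dinucleotides and the Ring1 window 30. Of 32851 promoter windows of the same length, 17.9% hold as many as Rnf2 or more and 5.9% as many as Ring1 or more, and the median window holds 6. Of the 9 genes 7 had a promoter entry, and no methylation or binding was measured here.

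Rnf2 had 51.9, 88.5, 47.7 and 42.8 CPM in EZH2nHom kainate libraries, against 41.3, 40.9, 41.3, 43.2 and 43.8 CPM in WT kainate libraries. After saline it had 63.8, 60.4, 51.6, 54.9 and 47.9 CPM in EZH2nHom libraries, against 44.8, 43.7, 40.4, 38.3 and 42.0 CPM in WT libraries. After saline every EZH2nHom library lay above every WT library, as did 12.9% of all genes, and after kainate the groups overlapped by 1 EZH2nHom library that lay within the WT range. The log2 difference was 0.41 ± 0.14 (SE) after saline and 0.46 ± 0.15 after kainate, with adjusted p of 0.058 and 0.067 by the edgeR quasi-likelihood test, so neither passed. EZH2nHom kainate replicate 2 weighed on both. Without it the kainate difference was 0.17 (adjusted p 0.24), and the saline difference, which shares its estimate of spread with that library, stayed at 0.41 but passed (adjusted p 0.00060). In the fit to the saline groups alone Rnf2 passed as well (0.39, adjusted p 0.0020), as it did without EZH2nHom saline replicate 5 or EZH2nHom kainate replicate 4. After kainate it passed with DESeq2 (adjusted p 0.037) and without EZH2nHom kainate replicate 3 (0.54, adjusted p 0.043) or 4 (0.57, adjusted p 0.023). With kainate Rnf2 differed by 0.050 ± 0.15 in EZH2nHom and 0.0087 ± 0.14 in WT, with 95% intervals of -0.26 to 0.36 and -0.29 to 0.30. Without EZH2nHom kainate replicate 2 the EZH2nHom value reversed to -0.23 and passed (adjusted p 0.048).

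Ring1 gave no call between genotypes, and its genotype values were not tested against those of Rnf2. It averaged 9.48 ± 2.22 CPM in EZH2nHom kainate, 11.1 ± 1.33 in EZH2nHom saline, 9.82 ± 0.465 in WT kainate and 10.4 ± 0.847 in WT saline (SD, n = 4, 5, 5 and 5). The genotype difference was 0.081 ± 0.13 after saline and -0.049 ± 0.14 after kainate, with 95% intervals of -0.19 to 0.35 and -0.33 to 0.24 that hold no change and a modest change in either direction. Rnf2 made up 81.4% ± 7.07 of the reads per kilobase of the RING pair in EZH2nHom kainate, 79.7% ± 3.40 in EZH2nHom saline, 77.1% ± 1.06 in WT kainate and 75.9% ± 2.08 in WT saline (SD). The ratio of Rnf2 to Ring1 reads per kilobase was highest in EZH2nHom kainate replicate 2, at 10.6, where the other 18 libraries ran from 2.71 to 5.51. In that library Ring1 was also the lowest of its group, at 6.57 CPM. Rnf2 shares 158 exon bases (3.8%) with Trmt1l on the opposite strand in GENCODE M21, and Trmt1l itself did not differ detectably between genotypes after saline (0.32 ± 0.25, adjusted p 0.44), nor after kainate (-0.033 ± 0.26, adjusted p 0.96).

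PCGF subunits fix the identity of a PRC1 complex, and those among the members, Bmi1 and Pcgf2, gave no call in the 4 comparisons or their difference. Bmi1 (PCGF4), best known for repressing the Ink4a/Arf locus in stem cells, averaged 57.6 ± 10.3 CPM in EZH2nHom kainate, 61.7 ± 6.68 in EZH2nHom saline, 52.5 ± 3.71 in WT kainate and 55.6 ± 2.70 in WT saline. Its genotype difference was 0.15 ± 0.096 after saline (adjusted p 0.34) and 0.13 ± 0.10 after kainate (adjusted p 0.46), and with kainate it was -0.099 ± 0.10 in EZH2nHom and -0.081 ± 0.096 in WT. With structural RNA as a covariate, whose share did not overlap between the saline groups, the saline difference was 0.45 and passed (adjusted p 0.035). The 95% intervals were -0.31 to 0.11 and -0.28 to 0.12 for the kainate responses. Pcgf2 (MEL18), its close paralog, averaged 2.69 ± 0.582 CPM in EZH2nHom kainate, 2.62 ± 0.629 in EZH2nHom saline, 2.71 ± 0.205 in WT kainate and 2.94 ± 0.416 in WT saline, with log2 differences between -0.17 and 0.036. Bmi1 held 95.02%, 95.3%, 94.5% and 94.4% of the reads per kilobase of the pair in the 4 groups, in the same order. The Bmi1 counts are uncertain, since 27.3% of its 32-base words also occur in other gene models, chiefly Gm5946, which itself had at most 4 reads in any library. Commd3, the gene just upstream of Bmi1, named here after its values were seen, was higher in EZH2nHom after saline (0.52 ± 0.080, adjusted p 0.00027) and after kainate (0.31 ± 0.085, adjusted p 0.034). The second call was lost after correcting for GC content and length (0.23, adjusted p 0.095) and without WT kainate replicate 1 or 2 or EZH2nHom kainate replicate 1. It was also lost in the fit to the kainate groups alone, with the replicate block and with no filter on low counts.

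Among the CBX genes described here, the difference with the lowest adjusted p was that of Cbx6, whose transcript was the most abundant of them per kilobase. Cbx6 had 159, 191, 192, 200.2 and 231 CPM in EZH2nHom saline libraries, against 265, 267, 281, 244.0 and 320 CPM in WT saline libraries. Every EZH2nHom saline library lay below every WT saline library, as did 8.42% of all genes. The log2 difference was -0.50 ± 0.12 (adjusted p 0.0078), or 0.707 times the WT level. After kainate Cbx6 had 171, 192, 196 and 162 CPM in EZH2nHom libraries, against 241, 232, 192, 173 and 275 CPM in WT libraries. The kainate groups overlapped, and the difference of -0.30 ± 0.13 did not pass (adjusted p 0.14). With kainate Cbx6 differed by -0.11 ± 0.13 in EZH2nHom (adjusted p 0.55) and by -0.31 ± 0.12 in WT (adjusted p 0.10). With the replicate number as a block, a pairing that the labels do not state, the WT value was -0.32 and passed (adjusted p 0.027). It also passed without WT kainate replicate 5 (-0.40, adjusted p 0.029), and the genotype difference after kainate passed without WT kainate replicate 4 (-0.38, adjusted p 0.043). The genotypes' responses differed by 0.20 ± 0.17 (adjusted p 0.75). The saline call was lost with structural RNA (the share of reads in such genes) as a covariate, at -0.61 and an adjusted p of 0.060. That share did not overlap between the saline groups (0.149% to 0.677% in EZH2nHom, 0.0297% to 0.0578% in WT), so this fit can hardly tell it from genotype. Cbx6 shares 563 exon bases (5.3%) with Npcd on the same strand, and Npcd had at most 16 reads in any library.

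Cbx7, a reader prominent in the self-renewal of mouse embryonic stem cells, was the member with the most negative kainate difference in WT. It had 25.9, 24.7, 19.96, 14.6 and 24.02 CPM in WT kainate libraries, against 28.7, 30.2, 26.8, 32.8 and 30.5 CPM in WT saline libraries. The groups did not overlap, which held for 4.63% of all genes in that direction, and Cbx7 was the single member of 9 without overlap in this comparison. The difference of -0.45 ± 0.16 missed the threshold in the edgeR test (adjusted p 0.078), while DESeq2 called it (adjusted p 0.045), as did the edgeR fit to the WT libraries alone (adjusted p 0.037). It also passed without WT kainate replicate 1 (-0.53, adjusted p 0.049) or EZH2nHom kainate replicate 2 (-0.45, adjusted p 0.037). It did not pass with the replicate block (-0.46, adjusted p 0.053), with structural RNA as a covariate (-0.41, adjusted p 0.31) or without any of the other 17 libraries, where it reached -0.33 (adjusted p 0.21) without WT kainate replicate 4. In EZH2nHom mice the libraries overlapped, with 20.3, 29.7, 21.4 and 17.9 CPM after kainate and 20.3, 28.1, 22.0, 33.6 and 26.99 CPM after saline, and the change was -0.23 ± 0.17 (adjusted p 0.34). The difference between these responses was 0.22 ± 0.23 (adjusted p 0.80). Cbx7 shares 100 exon bases (1.5%) with Apobec3 on the opposite strand, and Apobec3, an antiviral cytidine deaminase gene, rose with kainate by 2.73 ± 0.39 in EZH2nHom and 1.99 ± 0.37 in WT. Whether counting used strand is not given in the sources used here.

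Cbx8 and Cbx2, which lie next to each other on chromosome 11, were low in this tissue and gave no call. Cbx8 averaged 6.74 ± 1.09 CPM in EZH2nHom kainate, 7.5 ± 0.823 in EZH2nHom saline, 6.09 ± 1.18 in WT kainate and 6.34 ± 1.03 in WT saline, and its widest difference, between genotypes after saline, was 0.24 ± 0.15 (adjusted p 0.32). Cbx2 averaged 1.80 ± 0.986, 2.03 ± 0.626, 1.91 ± 0.411 and 2.19 ± 0.397 CPM in the same groups. With 40 to 101 Cbx2 reads per library, its intervals reached from -0.80 to 0.42 with kainate in EZH2nHom, so a fall of 1.5 times lies within the interval. Of the reads per kilobase of these 4 CBX genes, Cbx6 held 75.05% ± 3.12 after kainate and 73.7% ± 2.75 after saline in EZH2nHom, against 79.3% ± 1.06 and 79.1% ± 2.01 in WT (SD). The ranges overlapped slightly after saline, at 69.5% to 76.3% in EZH2nHom and 76.04% to 81.3% in WT, and did not overlap after kainate, at 70.5% to 77.5% in EZH2nHom and 78.0% to 80.5% in WT. Cbx8 held 8.09% ± 0.958 and 8.25% ± 0.854 in EZH2nHom after kainate and saline, and 6.31% ± 0.770 and 5.25% ± 0.551 in WT. These shares are descriptions and were not tested.

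**Figure D3:**
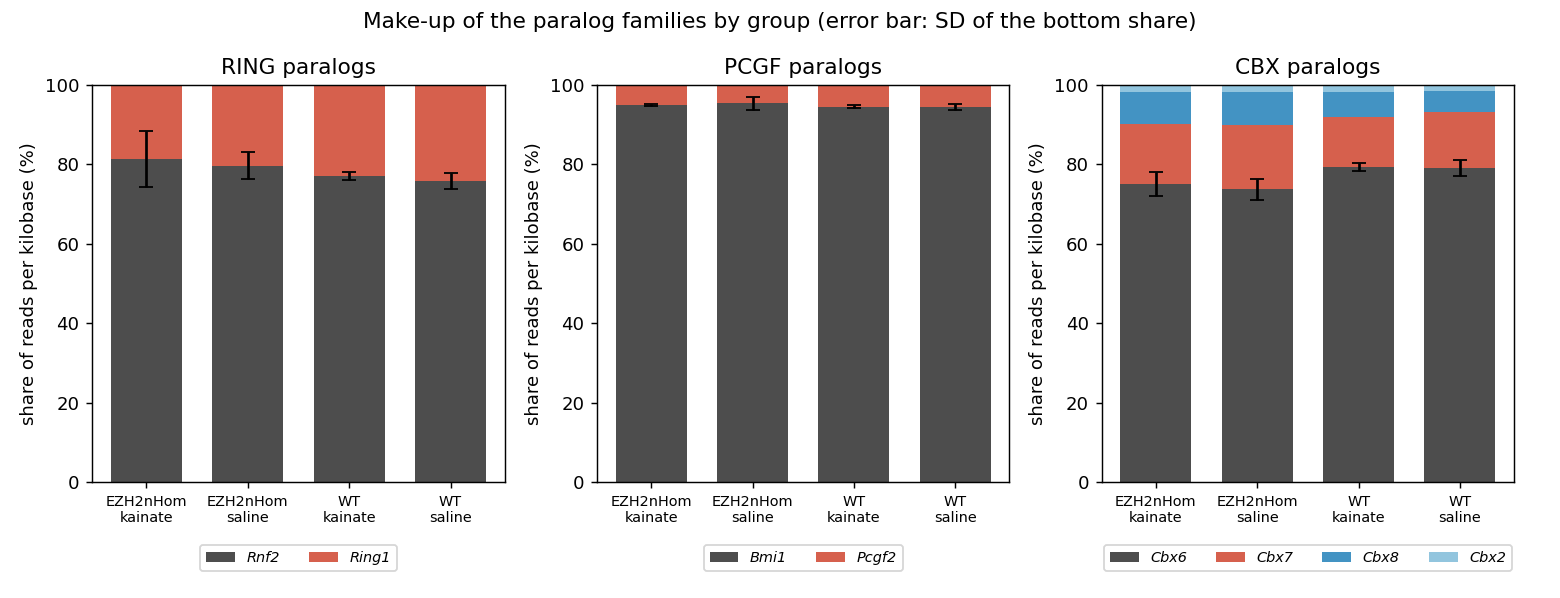
Mean share (y axis, percent) of each paralog in the reads per kilobase of its family, for the 2 RING, 2 PCGF and 4 CBX genes described here in the 4 groups, with the SD of the bottom paralog over libraries. Cbx6 is the bottom segment of the CBX bars, at 75.05% and 73.7% in the EZH2nHom groups and 79.3% and 79.1% in the WT groups.

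Kdm6b was the member with a call in 2 comparisons, both of which involve the EZH2nHom saline group. It had 6.93, 5.50, 4.07 and 6.86 CPM in EZH2nHom kainate libraries, against 2.44, 3.48, 3.38, 5.42 and 4.43 CPM in EZH2nHom saline libraries. In WT mice it had 6.08, 6.23, 5.26, 5.96 and 5.49 CPM after kainate, against 5.22, 6.61, 5.27, 5.15 and 6.54 CPM after saline. The EZH2nHom saline libraries were thus the low group, 4 of 5 below every WT library, while the other 3 groups overlapped throughout. Within the low group, replicates 1, 2 and 3 lay below replicates 4 and 5. Their structural RNA shares were 0.149%, 0.150% and 0.153%, against 0.677% and 0.548% in replicates 4 and 5. What sets these libraries apart was not tested. Kdm6b rose with kainate in EZH2nHom mice by 0.61 ± 0.20 (adjusted p 0.028), or 1.52 times, although the groups overlapped. In WT mice the change was 0.013 ± 0.18 (adjusted p 0.98, 95% interval -0.37 to 0.40). Between genotypes Kdm6b was lower in EZH2nHom after saline, with a log2 difference of -0.59 ± 0.19 (adjusted p 0.042), or 0.665 times the WT level, and did not differ detectably after kainate (0.0082 ± 0.20, adjusted p 0.99). The responses differed by 0.60 ± 0.27, with an unadjusted p of 0.039 and an adjusted p of 0.56, so a difference between genotypes in the response was not established over all genes.

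Both Kdm6b calls were near the threshold. The kainate call was lost in the fit to the EZH2nHom libraries alone (0.66, adjusted p 0.11) and without any of 5 single libraries, namely EZH2nHom saline replicates 1, 2 and 3 and EZH2nHom kainate replicates 1 and 4 (0.48 to 0.58, adjusted p 0.058 to 0.089). The saline genotype call was lost with no filter on low counts (-0.60, adjusted p 0.065), with the Y-linked level as a covariate (-0.51, adjusted p 0.11) and without EZH2nHom saline replicate 1, 2 or 3 or WT saline replicate 2 or 5. Kdm6b had 84 to 276 reads per library. It shares 286 exon bases (4.1%) with the antisense gene Kdm6bos, which had at most 3 reads in any library.

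The median genotype value after saline varied with GC content over all genes. The longest Kdm6b transcript has 59.6% GC, above 95.4% of tested genes, and that of Cbx6 54.9%, while those of Rnf2 (39.5%) and Bmi1 (40.2%) are above 8.1% and 10.2% of tested genes. Cbx8 (54.9% GC) had a genotype value after saline of 0.24. Ring1 (56.9%), Cbx7 (56.5%), Cbx2 (57.6%) and Pcgf2 (54.0%) had values from -0.19 to 0.081. Over all tested genes the median log2 difference between EZH2nHom and WT after saline was 0.013 in the lowest decile of GC content, where Rnf2 lies, 0.10 in the third decile and -0.072 in the highest decile, which holds Kdm6b and Cbx2. Genes spread widely within a decile, with quartiles of -0.29 and 0.17 in the highest, so single members do not show whether they follow the trend. With each library corrected for transcript GC content and length, chosen after seeing the data, Kdm6b after saline was -0.39 and no longer passed (adjusted p 0.12), Cbx6 was -0.30 and still passed (adjusted p 0.048), and Rnf2 was 0.32 (adjusted p 0.15). Under the same correction the kainate rise of Kdm6b in EZH2nHom stayed at 0.62 (adjusted p 0.010), and Ring1 with kainate in EZH2nHom, -0.22 ± 0.14 without it, was -0.35 and passed (adjusted p 0.044). The share of reads from structural RNA genes was 0.115% to 0.677% in EZH2nHom kainate, 0.149% to 0.677% in EZH2nHom saline, 0.0430% to 0.172% in WT kainate and 0.0297% to 0.0578% in WT saline. Libraries with under 1 CPM over 4 Y-linked genes numbered 1 of 4, 0 of 5, 2 of 5 and 2 of 5 in these groups. The part of GC content, structural RNA and these sex-linked reads in the genotype values beyond these fits was not tested. The structural RNA share did not overlap between the saline groups, so fits with that covariate can hardly tell it from genotype after saline.

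**Figure D4:**
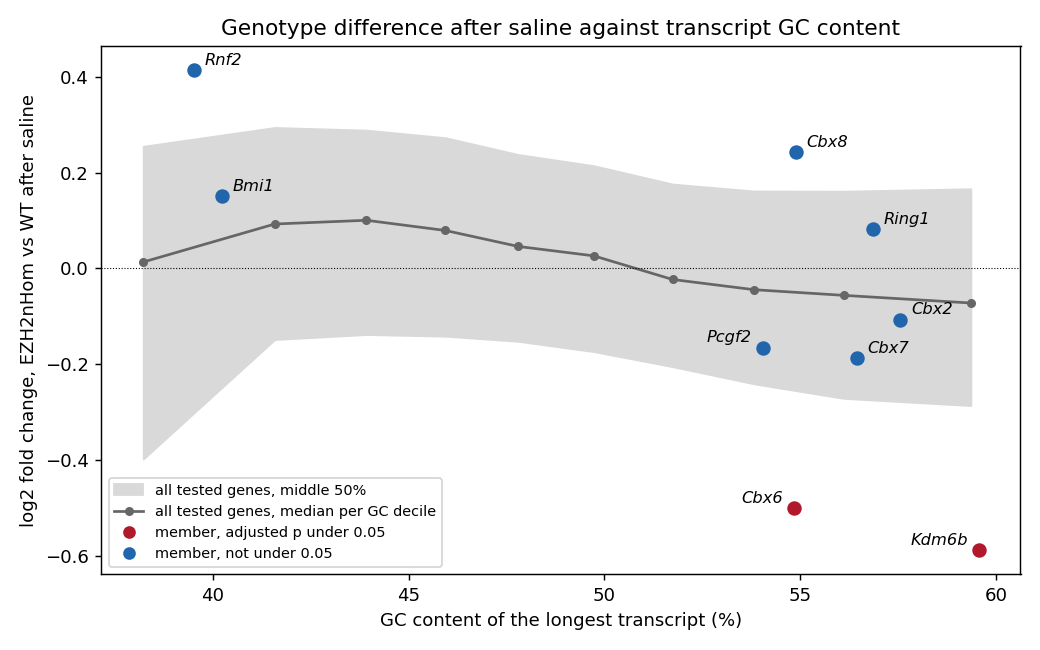
Log2 fold change between EZH2nHom and WT after saline (y axis) against GC content of the longest transcript (x axis, percent) for the 9 genes, with the median (line) and interquartile range (grey band) of all tested genes per decile of GC content. Cbx6 (-0.50) and Kdm6b (-0.59), in red, lie well below the grey band, and Rnf2 (0.41) lies above it.

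Partners of the members were read from lists of PRC1 and H3K27-related genes. Of 6 other canonical PRC1 genes tested, Phc3 and Scmh1 were lower in EZH2nHom after both treatments and none passed with kainate in either genotype. Over all genes 5.16% were lower after saline and 3.04% after kainate, and 26.1% and 12% passed with kainate in EZH2nHom and WT. Phc3, a Polyhomeotic subunit, averaged 72.5 ± 3.40 CPM in EZH2nHom and 93.9 ± 5.72 CPM in WT after saline (-0.37 ± 0.091, adjusted p 0.0097), and after kainate the difference was -0.33 ± 0.097 (adjusted p 0.042). Scmh1, a Sex-comb-on-midleg homologue, averaged 18.3 ± 1.32 CPM in EZH2nHom and 22.5 ± 2.08 CPM in WT after saline (-0.30 ± 0.091, adjusted p 0.033), and differed by -0.38 ± 0.097 after kainate (adjusted p 0.023). Neither kainate call held in the fit to the kainate groups alone (adjusted p 0.29 for Phc3 and 0.23 for Scmh1), that of Phc3 was lost without any 1 of 13 single libraries, and the Scmh1 calls without any 1 of 5 (saline) or 4 (kainate). With structural RNA as a covariate, whose share did not overlap between the saline groups, both saline calls were lost. Phc1 and Phc2 gave no call, with genotype differences between -0.15 and 0.14. The 6 genes' median was -0.069 after saline and -0.17 after kainate.

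Variant PRC1 lacks a CBX reader of H3K27 methylation and is built on PCGF1, PCGF3, PCGF5 or PCGF6. Of its 27 listed genes, 4 were higher and 1 lower in EZH2nHom after saline, 3 were higher and 0 lower after kainate, 1 rose and 2 fell with kainate in EZH2nHom, and 0 rose and 2 fell with kainate in WT. Over all genes the shares called were 8.33% higher and 5.16% lower after saline, 4.56% and 3.04% after kainate, 14.3% and 11.8% with kainate in EZH2nHom, and 9.47% and 2.57% with kainate in WT. Hdac2, a histone deacetylase found in the PCGF6 complex and in many others, averaged 97.5 ± 8.85 CPM in EZH2nHom and 59.9 ± 3.64 CPM in WT after saline (0.70 ± 0.071, adjusted p 4.27e-06), without overlap. After kainate it averaged 78.6 ± 4.09 CPM in EZH2nHom and 60.6 ± 3.63 CPM in WT (0.38 ± 0.075, adjusted p 0.0068), and it fell with kainate in EZH2nHom by 0.31 on the log2 scale (adjusted p 0.0049). Its saline call held in all 10 other settings and without any single library, and the other Hdac2 calls were lost in the fits to only the groups compared (adjusted p 0.16 and 0.070). The others higher after saline were Csnk2b, Max and Pcgf3 (0.23 to 0.34), and Dcaf7 was lower (-0.34 ± 0.10, adjusted p 0.033). The Csnk2b call held without any single library but was lost with structural RNA as a covariate. Those of Max, Pcgf3 and Dcaf7 were lost without any 1 of 6, 14 and 5 libraries. Pcgf6 fell with kainate in WT (-0.37 ± 0.092, adjusted p 0.012) and was higher in EZH2nHom than in WT after kainate (0.39 ± 0.097, adjusted p 0.021), as was Usp7 (0.58 ± 0.15, adjusted p 0.024), a deubiquitinase whose value was 0.28 (adjusted p 0.024) without EZH2nHom kainate replicate 2. Neither of these genotype calls held in the fit to the kainate groups alone, that of Pcgf6 was lost without EZH2nHom kainate replicate 1 or WT kainate replicate 3, and that of Usp7 without WT kainate replicate 2. The Pcgf6 call with kainate in WT held without any single library. It was lost with structural RNA as a covariate, over the WT libraries with shared code prefixes and at an adjusted p under 0.01. Auts2, a component of PCGF3 and PCGF5 complexes studied in neurons, also fell with kainate in WT (-0.49 ± 0.15, adjusted p 0.040), a call lost without any 1 of 8 WT libraries. With kainate in EZH2nHom, Fbrsl1 rose (0.55 ± 0.15, adjusted p 0.0090) and Mga fell (-0.40 ± 0.091, adjusted p 0.0030), but neither call held in the fit to the EZH2nHom libraries alone.

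Among the 10 genes of the other KDM6 enzymes and their COMPASS partners, Kdm6a (UTX), the broadly expressed H3K27 demethylase paralog, gave no call, with log2 differences between -0.038 and 0.14. Of these 10 genes, 1 was higher and 1 lower in EZH2nHom after saline, 1 rose and 2 fell with kainate in EZH2nHom, and 0 passed in the other comparisons. Over all genes 13.5% passed between genotypes after saline and 7.61% after kainate, and 26.1% passed with kainate in EZH2nHom and 12% in WT. Kdm6a averaged 41.3 ± 12.6 CPM in EZH2nHom kainate, 37.6 ± 2.66 in EZH2nHom saline, 37.3 ± 7.98 in WT kainate and 38.4 ± 8.69 in WT saline, which per kilobase is 4.93, 4.49, 4.45 and 4.58 CPM against 0.840, 0.550, 0.835 and 0.828 CPM for Kdm6b. Uty, the Y-linked paralog among the 10 genes, ran from 0 to 37.3, 38.5 to 54.1, 0 to 40.5 and 0 to 42.5 CPM in the same groups. The part of sex makeup in the Kdm6a values was not tested. Kmt2d, an H3K4 methyltransferase that binds KDM6A, was lower in EZH2nHom after saline (-0.73 ± 0.20, adjusted p 0.018), a call lost with the GC and length correction (-0.29, adjusted p 0.22) and without EZH2nHom saline replicate 1 or 3. Dpy30 was higher (0.35 ± 0.085, adjusted p 0.0087), likewise lost with that correction (0.090, adjusted p 0.45) and without WT saline replicate 2 or 3. With kainate in EZH2nHom, Rbbp5 and Ash2l fell by 0.30 and 0.25 on the log2 scale (adjusted p 0.0018 and 0.011), calls that the fit to the EZH2nHom libraries alone did not give. Pagr1a rose there by 2.99 ± 0.89 (adjusted p 0.019), with 155 to 214 reads per library after kainate and 0 to 58 after saline. In WT it varied widely, with 19 to 302 reads per library after kainate and 33 to 183 after saline. The Pagr1a call was lost with the replicate block. Of the 9 genes that remove or bind the remover of H2A ubiquitin, Usp16 was higher in EZH2nHom after saline (0.44 ± 0.13, adjusted p 0.034) and after kainate (0.50 ± 0.14, adjusted p 0.036, but 0.24 and 0.083 without EZH2nHom kainate replicate 2). Foxk1 was lower after saline (-0.72 ± 0.14, adjusted p 0.0020) and kainate (-0.51 ± 0.15, adjusted p 0.043). Over all genes 8.33% were higher and 5.16% lower in EZH2nHom after saline, and 4.56% and 3.04% after kainate. The Usp16 saline call and the Foxk1 kainate call were each lost without any 1 of 12 single libraries, and the Usp16 kainate call without any 1 of 5. The Foxk1 saline call held without each library but was lost with structural RNA as a covariate. Neither kainate call held in the fit to the kainate groups alone (adjusted p 0.27 for Usp16 and 0.22 for Foxk1) or with the block, and the Usp16 saline call was lost with the GC and length correction (0.39, adjusted p 0.054) and with the Y-linked covariate (0.41, adjusted p 0.088).

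Of 4 cell-cycle inhibitor genes known as Polycomb targets, 3 were tested and Cdkn1a (p21) passed. It averaged 16.7 ± 17.2 CPM in EZH2nHom kainate, 2.11 ± 0.433 in EZH2nHom saline, 5.09 ± 3.04 in WT kainate and 1.84 ± 0.456 in WT saline libraries. It rose with kainate in EZH2nHom by 2.97 ± 0.50 (adjusted p 0.00030, groups without overlap; 1.94 and 0.00065 without EZH2nHom kainate replicate 2) and differed by 1.45 ± 0.48 in WT (adjusted p 0.054). The genotype difference after kainate, 1.72 ± 0.48 (adjusted p 0.035), was 0.69 (adjusted p 0.26) without EZH2nHom kainate replicate 2, the library at 42.3 CPM, and was also lost without WT kainate replicate 1, 2 or 5. Over all genes 14.3% rose with kainate in EZH2nHom, and 4.56% were higher in EZH2nHom than in WT after kainate. Cdkn2a, the Ink4a/Arf locus that Bmi1 is known to repress, had 2 to 8 reads per library in EZH2nHom kainate, 0 in EZH2nHom saline, 0 to 4 in WT kainate and 0 to 2 in WT saline, too few to test.

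The genes with profiles most like the called members were found by the root mean square difference of log2 CPM over the 19 libraries, each gene centred on its mean, among 15256 genes. Since they were picked for following the member over the same libraries, that they share its group differences is fixed by the choice and supports nothing. For Cbx6 these were Epb41l1 (0.082), Fbxo41 (0.11) and Trak1 (0.11), against a spread of Cbx6 about its own mean of 0.29. Epb41l1, which encodes a neuronal band 4.1 protein, and Trak1, a mitochondrial transport adaptor, had log2 differences between EZH2nHom and WT after saline of -0.45 ± 0.11 and -0.36 ± 0.11, and Fbxo41 had -0.29 ± 0.13. For Kdm6b they were Rnpepl1 (0.16), Fbrsl1 (0.18) and Cic (0.18), against a spread of 0.38. Their log2 differences between kainate and saline in EZH2nHom were 0.40 ± 0.15 for Rnpepl1, 0.55 ± 0.15 for Fbrsl1 and 0.49 ± 0.18 for Cic, a transcriptional repressor.

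Cell type markers also moved with kainate. Over all genes 14.3% rose and 11.8% fell with kainate in EZH2nHom, and 9.47% rose and 2.57% fell in WT. Of 10 microglial markers, 9 rose with kainate in EZH2nHom and 10 in WT, and their summed level was 1410 to 2727 CPM in EZH2nHom kainate against 372 to 419 in EZH2nHom saline, and 830 to 2639 in WT kainate against 430 to 484 in WT saline. Of 12 neuronal markers, 5 fell in EZH2nHom and 1 fell in WT, with sums of 5151 to 6575 CPM in EZH2nHom kainate, 7600 to 8295 in EZH2nHom saline, 5091 to 7950 in WT kainate and 7335 to 7869 in WT saline. Of 10 astrocyte markers, 6 rose in EZH2nHom and 4 in WT, with sums of 6497 to 10860 CPM in EZH2nHom kainate, 4900 to 5474 in EZH2nHom saline, 8828 to 10970 in WT kainate and 6149 to 6833 in WT saline. Of 10 oligodendrocyte markers, 5 fell in EZH2nHom, with sums of 3869 to 6676 CPM after kainate and 6689 to 10710 after saline, and 1 rose in WT, with sums of 5025 to 9163 CPM after kainate and 5623 to 7910 after saline. All 8 proliferation markers rose in both genotypes, and 5 of 5 red blood cell markers rose in WT and 0 in EZH2nHom. The part of these markers in the members' values was not tested. After saline, where the genotype calls of Cbx6 and Kdm6b lie, 0 of 12 neuronal and 0 of 10 microglial markers differed between genotypes, while 3 of 10 astrocyte markers were lower and 2 of 10 oligodendrocyte markers higher in EZH2nHom. Their sums were 4900 to 5474 CPM in EZH2nHom and 6149 to 6833 in WT for astrocytes, and 6689 to 10710 and 5623 to 7910 for oligodendrocytes. Over all genes 8.33% were higher and 5.16% lower in EZH2nHom after saline, and 4.56% and 3.04% after kainate. Red blood cell markers, 5 of 5 lower in EZH2nHom than in WT after kainate, summed to 103 to 435 CPM in EZH2nHom and 552 to 1974 in WT. Ependymal and choroid plexus markers varied widely within groups, as in EZH2nHom saline (47.7 to 3636 CPM) and WT saline (27.7 to 3895 CPM), and 0 of 7 were called in any comparison. No listed marker was at 0 in every library, and the part of cell makeup in the members' values was not tested.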

How the data were processed

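Libraries came from hippocampal total RNA after removal of rRNA of both the cytoplasm and the mitochondria, per the labels' protocols. The authors deposited whole-number read counts per Ensembl gene, which were the input of every test. The submitters' processing notes name mm39, DESeq2 and DESeq without versions. The aligner, annotation and strand setting are not given in the sources used here. The authors' annotated table also holds normalised signal (counts divided by 1 size factor per library), log2 fold changes, a test score and p-values whose comparison the file does not state, per the file headers. It was used for gene symbols only. A filtered copy was not used.

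The tests ran in edgeR 4.0.16 (R 4.3.3), with DESeq2 1.42.0 as an alternative, and tables were made in Python 3.11.15. Of 55416 genes 32474 had a read, and filterByExpr left 19234. Libraries were scaled by TMM, and 1 robust quasi-likelihood model took in all 19 libraries, with 4 group means. Tests were two-sided, adjusted by Benjamini-Hochberg over all tested genes, and called under 0.05. Changes are log2 fold changes ± SE, and levels are CPM ± SD. A library held 24496685 to 43948317 reads. At this depth the SE of a gene's log2 change had a median of 0.172 to 0.25 in the 5 contrasts. Lengths, GC content and overlaps came from GENCODE M21 on GRCm38 by gene ID only. The pipeline was tested on simulated data.

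The members, gene lists and tests were chosen with earlier results of these data known. All 9 members are named. Partners are named where called (up to 4 per list and comparison, by smallest p) or where they complete a paralog family, with the 3 genes most alike to each called member. Same-numbered WT libraries deviated together over 11754 genes of at least 5 CPM (correlations of 0.221 to 0.571 in 5 pairs), though 1 pair was at 0.077 over all tested genes. The labels do not state a pairing, and the main fit had no replicate block. Same-numbered saline libraries of different genotype correlated by 0.073 to 0.565 over the same genes, so such correlations do not establish a pairing. For EZH2nHom kainate they ran from -0.035 to 0.19 against EZH2nHom saline and from -0.062 to 0.524 against WT kainate. Each result was recomputed with DESeq2 (its size factors in edgeR, or its Wald test), with a stricter filter or none, with only the libraries of both groups in the fit, with the replicate block, with structural RNA and Y-linked covariates, in WT libraries with shared code prefixes, at an adjusted p under 0.01, without each library and, added after seeing the data, corrected for GC content and length. All partners, neighbours and alike genes called were carried through these as well. A related gene is not reported here and was left out of the family shares and the partner list.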

Additional observations from a re-analysis of the deposited data

Results flagged for a closer look

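Cbx2 stood out in EZH2nHom kainate replicate 2, with 3.27 CPM where the other 3 libraries of the group had 1.16 to 1.44 CPM. Its distance from the nearest library was more than Dixon's 95% critical value of 0.829 for 4 values allows. The 9 genes were examined in 4 groups each, 36 in all, with 1 flag, and chance flags about 1 in 20. The same library stood apart on the second principal component and had the highest Rnf2 level of all 19 libraries. Without it, Cbx2 with kainate in EZH2nHom was -0.64 (adjusted p 0.057), against -0.19 ± 0.29 with it.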

How the results depend on the processing

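Each of the 2 Kdm6b calls was lost when any 1 of 5 libraries was left out, while the Cbx6 call after saline held without each of 19 and was lost in 1 of 10 settings. Under the 9 to 12 other settings per comparison, single member values kept direction and side of the threshold in 411 cases, gained a call in 14, lost one in 8 and reversed in 26. Leaving out single libraries gave 776, 9, 10 and 60. Except for Rnf2 with kainate in EZH2nHom, each reversed value was without a call. Cbx2, Pcgf2, Kdm6b and Cbx8 had 40 to 297 reads per library, which limits their precision. The causes of these changes were not tested.

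In WT with kainate, 0 members were called, against 1 with the DESeq2 Wald test, in the fit to only the groups compared, with the replicate block and with the GC and length correction, and 2 with the GC correction and block together. In EZH2nHom with kainate 1 was called, against 0 at an adjusted p under 0.01, with only the groups compared and with the block, and 2 with the GC correction. Between genotypes after saline 2 were called, against 1 with no filter, at 0.01, with the Y-linked covariate and with the GC correction, 3 with only the groups compared and with the structural RNA covariate, and 4 with the block. Between genotypes after kainate 0 were called, against 1 with DESeq2 and with the structural RNA covariate. Without single libraries the counts ran from 0 to 1, 0 to 2, 1 to 3, 0 to 1 and, for the difference of responses, 0 to 0.

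The replicate block pairs libraries by number, a pairing that the labels do not state for any group. With kainate in WT it brought in Cbx6 (-0.32, adjusted p 0.027) and gave 3062 genes. Same-numbered saline libraries of different genotype correlated by 0.073 to 0.565 as well, over genes of at least 5 CPM. The EZH2nHom kainate libraries are numbered 2 to 5 in their descriptions and 1 to 4 in their titles. Block fits with that group rest on the title numbers. With the block Kdm6b with kainate in EZH2nHom was 0.74 (adjusted p 0.13), and after saline Rnf2 (0.38, adjusted p 0.00066) and Cbx7 (-0.23, adjusted p 0.040) passed between genotypes. Values reversed by the block were Cbx6 0.014 and Rnf2 -0.0016 (kainate in EZH2nHom), Kdm6b -0.039 (genotypes after kainate), and Rnf2 -0.067 and Cbx2 -0.054 (difference of responses).

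Other reversed values were, with kainate in WT, Rnf2 at -0.019 and Kdm6b at -0.015 with the stricter filter, Rnf2 at -0.0093 and Kdm6b at -0.030 over shared prefixes, and Kdm6b at -0.22 and Bmi1 at 0.090 with the structural RNA covariate. With kainate in EZH2nHom, Rnf2 was -0.0078 with that covariate, and Bmi1 0.0096 and Pcgf2 -0.077 with the GC correction. Between genotypes with the covariate, Cbx8 was -0.059 and Ring1 -0.19 after saline, and Kdm6b -0.15 after kainate. For the difference of responses the covariate gave Rnf2 -0.23, Cbx8 0.11 and Ring1 0.041. The GC correction gave Bmi1 0.020 and Cbx2 -0.046, and Bmi1 was 0.011 with DESeq2 size factors, 0.0071 with no filter, 0.015 with the stricter filter and 0.0099 with DESeq2.

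Without single libraries, signs changed within these ranges. With kainate in WT, Rnf2 ran from -0.036 to 0.024, Kdm6b from -0.039 to 0.059 and Cbx8 from -0.17 to 0.039. With kainate in EZH2nHom, Rnf2 ran from -0.23 to 0.17, Pcgf2 from -0.12 to 0.17 and Cbx2 from -0.64 to 0.012. Between genotypes, Cbx2 ran from -0.31 to 0.00090 after saline, and after kainate Kdm6b from -0.097 to 0.15, Cbx7 from -0.14 to 0.12, Ring1 from -0.15 to 0.088, Pcgf2 from -0.17 to 0.065 and Cbx2 from -0.55 to 0.060. For the difference, Rnf2 ran from -0.24 to 0.16, Bmi1 from -0.14 to 0.053, Cbx8 from -0.20 to 0.029, Ring1 from -0.22 to 0.0063, Pcgf2 from -0.0018 to 0.28 and Cbx2 from -0.45 to 0.20.

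Over all genes, 2316 were called with kainate in WT, against 1083 at 0.01, 568 with the structural RNA covariate and 0 over shared prefixes, and 1365 to 3414 without single libraries. In EZH2nHom the 5012 were 2815 at 0.01, 3066 with only the groups compared and 2151 with the block. After saline the 2596 were 1212 at 0.01, 5604 with only the groups compared, 6457 with the block and 1712 with the covariate, and 1675 to 4295 without single libraries. After kainate the 1463 were 959 with no filter, 284 at 0.01, 2214 with DESeq2, 4 with only the groups compared and 1 with the block, and 670 to 2193 without single libraries. For the difference 0 were called, against 12 with DESeq2, 1 with the block and 0 to 4 without single libraries.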
